A study of Mus musculus with 4 samples.

Results

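The levels of 10 transcription factor genes of endoderm and foregut were followed in 4 mouse adenoma colonoid lines. They comprise 3 GATA genes (Gata4, Gata5 and Gata6), 3 FOXA genes (Foxa1, Foxa2 and Foxa3) and 4 SOX genes (Sox2, Sox9, Sox17 and Sox21). They were found by gene symbol among the 16857 genes of the deposited table, in which all 10 had a row. The genes were chosen by their family and foregut role with their G2 and G0 levels in this table known, so these levels are given as a description, without a test. A total of 9 of the 10 passed the filter on low values, a mean of at least 1 normalized count over the 4 libraries, and Gata4 did not.

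Bulk RNA sequencing was done on 2 lines labelled G0 (numbers 75 and 179) and 2 labelled G2 (numbers 157 and 236), each sequenced once. A colonoid is a culture of colon epithelium that grows as a hollow or budding structure. The lines of both groups carry Apcmin in their names and Apcnull in their genotype, the loss of a brake on Wnt signalling that starts adenomas in the mouse intestine. The G0 lines are heterozygous (LSL-mTERT-het) and the G2 lines homozygous (LSL-mTERT-homo) for an allele of Tert, the catalytic subunit of telomerase. The series title concerns chromosomal instability arising from telomeres, and the design text compares colonoids of low and high instability without saying which generation is which. No label gives the age or sex of the animals, or the mouse behind a line. The lines may share an animal, so a p-value speaks only of the spread among these 4 cultures.

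GATA4, GATA5 and GATA6 are zinc finger proteins that bind the letters GATA, and in the gut they act in endoderm formation and in the regional identity of the epithelium. FOXA proteins are forkhead factors that can bind closed chromatin and open it for other factors, and in the intestine FOXA1 and FOXA2 are needed for goblet and enteroendocrine cells. SOX17 specifies definitive endoderm, SOX2 marks the future esophagus and stomach, and SOX9 is a factor of the crypt base and of Paneth cells. SOX21 is a relative of SOX2 known mainly from ectoderm and foregut. CDX2 is the factor that gives the hindgut its intestinal identity and opposes SOX2 there.

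Promoter windows of 6 members were read from the RefSeq table of GRCm38.p6, the assembly also called mm10. No window was read for Gata4, Gata6, Sox9 or Sox17, so nothing below on promoters covers them. The 250 bases before the start are shown for 4 members whose level was higher in G2 and whose window lies wholly outside the annotated gene, so that sequence and level can be read together. All are written 5′ to 3′ in the direction of the gene, and no motif searched was found in these windows, so they hold no capitals.
Foxa2 (chr2:148046970-148047219, minus strand): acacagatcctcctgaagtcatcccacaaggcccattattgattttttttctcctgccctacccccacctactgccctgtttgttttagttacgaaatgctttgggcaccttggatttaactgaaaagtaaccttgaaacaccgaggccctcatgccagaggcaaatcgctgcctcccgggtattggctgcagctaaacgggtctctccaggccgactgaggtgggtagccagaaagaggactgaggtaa
Foxa3 (chr7:19023540-19023789, minus strand): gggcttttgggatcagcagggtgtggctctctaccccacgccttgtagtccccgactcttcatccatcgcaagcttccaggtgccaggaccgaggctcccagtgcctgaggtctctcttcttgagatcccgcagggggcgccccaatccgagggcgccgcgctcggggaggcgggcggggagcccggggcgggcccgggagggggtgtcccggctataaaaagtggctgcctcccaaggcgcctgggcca
Sox2 (chr3:34649745-34649994, plus strand): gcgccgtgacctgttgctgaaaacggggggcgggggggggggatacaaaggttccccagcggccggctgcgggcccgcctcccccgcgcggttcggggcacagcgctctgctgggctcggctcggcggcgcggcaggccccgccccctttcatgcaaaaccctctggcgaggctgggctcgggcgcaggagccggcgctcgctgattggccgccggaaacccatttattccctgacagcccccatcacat
Sox21 (chr14:118237031-118237280, minus strand): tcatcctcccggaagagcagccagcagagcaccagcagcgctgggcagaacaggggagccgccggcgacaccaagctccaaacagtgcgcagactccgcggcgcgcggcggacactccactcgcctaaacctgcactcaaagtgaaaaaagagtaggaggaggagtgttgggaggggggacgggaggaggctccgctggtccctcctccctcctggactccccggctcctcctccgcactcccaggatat

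The windows were searched on both strands for AGATAA or TGATAA as a GATA site, TGTTTAC or TATTTAC as a forkhead site, and ACAATG or ACAATA as a SOX site. No match in a member's window overlapped another. Over all 32851 promoter windows of the table, 16.6% held a GATA site, 5.76% a forkhead site and 17.4% a SOX site. Among the 8 windows of the members there were 2 matches, each printed here with 10 bases on either side and the match in capitals. The first is a forkhead site on the opposite strand, 141 bases before a Foxa1 start, and the second a GATA site 183 bases before the last of the 3 Foxa2 starts in the table.
Foxa1: atactgctttGTAAACAaagtgagggc
Foxa2, last start: gttagccttgAGATAAtattaacttt
The 8 windows held 6 to 27 CG pairs, against a median of 6 over all windows, and their GC content was 50.8% to 72.0%, against a median of 52.4%. A match of letters is a description of the sequence and does not show binding.

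Library totals lay between 16545429 and 17901744 counts, and 14119 to 14215 genes had a count in a library. Tert, the targeted gene, stood at 93.3 and 97.5 normalized counts in the G0 lines and at 0 and 0.977 in the G2 lines. The Y-linked genes Ddx3y, Kdm5d, Uty and Eif2s3y had a count of 0 in both G0 lines and at least 296.2 normalized counts in each G2 line, so the presence of Y transcripts and the group cannot be told apart for any gene below. A normalized count is a count divided by the library's size factor. Over the 13981 genes that passed the filter, 829 were higher and 638 lower in G2 past the threshold of the test, an adjusted p of 0.05 from limma and the Benjamini-Hochberg procedure over every tested gene (10.5% in all, 5.93% higher and 4.56% lower). The same test called 0 genes without G0 replicate 1, 2 without G0 replicate 2, 0 without G2 replicate 1 and 0 without G2 replicate 2, where 3234, 2431, 2475 and 2484 genes had an unadjusted p under 0.05. Every call given below therefore rests on having both lines of each group. Of the 53 genes other than members that are named with values and passed, 26 also lost the call when limma ran without its intensity trend, among them Sox12, Cebpa, Tbx3, Xkr4 and Abcc4 (adjusted p = 0.0573 to 0.114).

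Of the 9 members that passed the filter, 6 were past that threshold and higher in G2 (background 5.93%) and 0 were lower. The groups did not overlap for 9 of the 9, a state found for 57.8% of all genes tested. Since the genes were proposed from this contrast, nothing is read from either count.

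**Figure D1:**
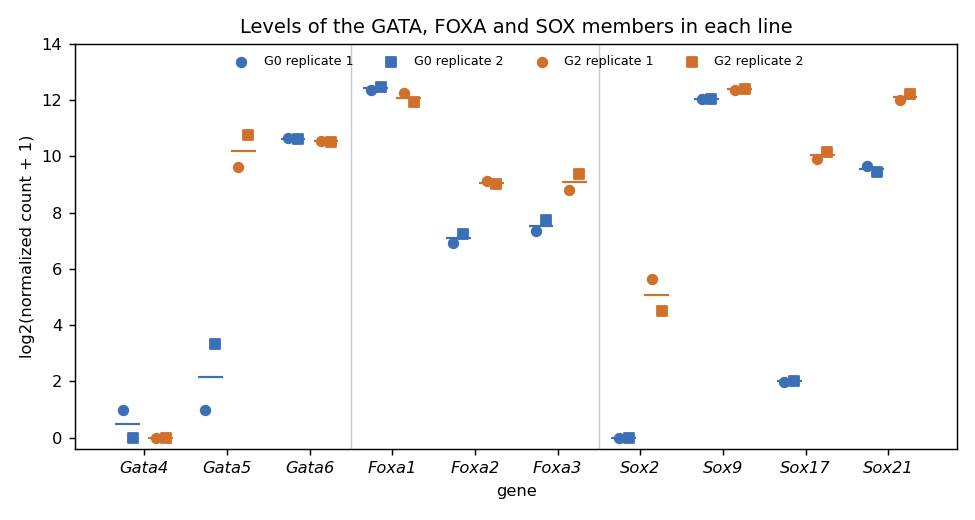
Level of each member as log2(normalized count + 1) on the y axis, by gene on the x axis. Points are single libraries (G0 in blue, G2 in orange, circles for replicate 1 and squares for replicate 2) and short lines are means over 2 libraries. Sox17 and Gata5 lie near the bottom of the scale in G0 and far above it in G2, while Gata6, Foxa1 and Sox9 lie close together in all 4 libraries.

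Among the GATA genes, Gata5 was nearly silent in G0 and abundant in G2, Gata6 was at the same order of level throughout, and Gata4 was not detectable. Gata5, on chromosome 2 from 180325088 to 180335503, stood at 0.982 and 9.14 normalized counts in the G0 lines and at 778.6 and 1753 in the G2 lines. The lowest G2 line was far above the highest G0 line, and the lines within each group were themselves apart, by 2.25-fold in G2. The mean was 5.06 ± 5.77 in G0, against 1266 ± 688.7 in G2 (each SD over 2 lines), and the 95% exact counting interval of their ratio was 138.4 to 532.4. Such intervals cover counting error only, and the ratio itself was 138.4 without G0 replicate 1, 1289 without G0 replicate 2 and 153.8 without G2 replicate 2.

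Gata6, the GATA factor found along the whole intestine, on chromosome 18 from 11052510 to 11085636, stood at 1595 and 1573 normalized counts in G0 and at 1508 and 1473 in G2. The groups did not overlap, but the gap was small: the G0 mean of 1584 ± 14.9 (SD, n = 2) was 1.06 times the G2 mean of 1490.4 ± 24.5. Gata4, the factor of the proximal small intestine, on chromosome 14 from 63198914 to 63271712, had 1 count in G0 replicate 1 and 0 in the other 3 libraries. A count of 0 allows up to 3 counts, or 2.93 to 3.05 normalized counts in a library, so Gata4 was not detectable at this depth in either group and no ratio is given.

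The FOXA genes divided into an abundant one and 2 that were low in G0. Foxa1, on chromosome 12 from 57540628 to 57548029, stood at 5319 and 5676 normalized counts in G0 and at 4870.0 and 3919.6 in G2. Both G2 lines were below both G0 lines, and the G0 mean was 1.25 times the G2 mean (5498 ± 252.7 and 4395 ± 672.0, SD, n = 2 each). The 2 low genes differed the other way. Foxa2, on chromosome 2 from 148042877 to 148046969, stood at 120.8 and 151.4 in G0 and at 556.7 and 513.2 in G2, with a ratio of means of 3.93 (136.1 ± 21.6 to 534.9 ± 30.8). Foxa3, best known from liver, on chromosome 7 from 19013283 to 19023539, stood at 162.0 and 212.3 in G0 and at 442.7 and 665.7 in G2, with a ratio of 2.96 (187.2 ± 35.6 to 554.2 ± 157.6). For Foxa2 and Foxa3 alike the lowest G2 line was more than the highest G0 line, and the gap between groups exceeded the gap between lines of a group.

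Of the SOX genes, Sox17 was at a few counts in G0 and was abundant in G2. Sox17, on chromosome 1 from 4490928 to 4497426, had 3 counts in each G0 line, or 2.95 and 3.05 normalized counts. In G2 it stood at 967.1 and 1150.5, and these lines differed by 1.19-fold, so the spread within groups was small beside the difference. The G2 mean of 1059 ± 129.6 (SD, n = 2) was 353.3 times the G0 mean, with a counting interval of 162.3 to 965.4.

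Sox21, on chromosome 14 from 118233233 to 118237030, was already expressed in G0 and higher in G2. Its levels were 802.2 and 696.8 normalized counts in the G0 lines and 4112 and 4774 in the G2 lines, a ratio of means of 5.93 (749.5 ± 74.5 to 4443 ± 468.3, SD, n = 2 each). Sox2, the foregut factor, on chromosome 3 from 34649995 to 34652461, was not counted in either G0 line and had 48 and 22 counts in the G2 lines, or 48.4 and 21.5 normalized counts. It was at least 11.7-fold higher in G2 against a floor of 3 counts per library, and at least 7.18-fold without G2 replicate 1. In bulk RNA a low level of this kind can be a few cells with much of the transcript or many with little, and these cannot be told apart.

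Sox9, on chromosome 11 from 112782210 to 112787757, stood at 4195 and 4183 normalized counts in G0 and at 5291 and 5394 in G2. The lines of a group were nearly equal, the groups did not overlap, and the ratio of means was 1.28 (4189 ± 8.22 to 5342 ± 72.9, SD, n = 2 each).

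To compare levels between genes, normalized counts were divided by the length of the merged exons in kilobases. On this scale Foxa1 was the highest member in both groups, at 1652 ± 75.9 per kilobase in G0, against 1321 ± 202.0 in G2 (each SD over 2 lines), and Sox9 followed at 1013 ± 1.99 and 1292 ± 17.6. In G2 the library values of these 2 genes overlapped. Sox21 came next at 1169 ± 123.3, and its values did not overlap those of Sox9. Among 13746 genes ranked per kilobase, Foxa1 stood at the 96.3rd and 96.5th percentiles in the G0 lines, Sox17 at the 6.8th in both G0 lines, and Sox17 at the 70.7th and 74.3rd in the G2 lines.

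Below them in G0 came Gata6 (243.4 ± 2.3 per kilobase), Sox21 (197.3 ± 19.6), Foxa3 (91.9 ± 17.5) and Foxa2 (57.4 ± 9.12), with no overlap between neighbours. Gata5 (1.54 ± 1.76) and Sox17 (0.628 ± 0.0151) followed and overlapped each other. In G2 the order below Sox21 was Gata5 (386.2 ± 210.2), Foxa3 (272.1 ± 77.4), Gata6 (229.0 ± 3.77), Foxa2 (225.7 ± 13), Sox17 (221.9 ± 27.2) and Sox2 (17 ± 9.25). The 5 genes from Gata5 to Sox17 overlapped their neighbours, and Sox2 and the undetected Gata4 lay below them.

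Among the members of each family the make-up differed between the groups. The sums below cover the members only, which were chosen with these levels known. They leave out other genes, such as Gata2, Gata3, Sox4, Sox12 and Sox13, so the shares are not those of the whole GATA or SOX family. Gata5 made up 0.122% and 1.14% of the summed GATA level per kilobase in the G0 lines and 50.6% and 70.3% in the G2 lines, and the GATA sum was 245.6 and 244.6 against 469.3 and 761.2 per kilobase. The FOXA sum overlapped between the groups, at 1729 and 1874 per kilobase in G0 and 1916 and 1721 in G2, while Foxa1 made up 92.5% and 91% of it in G0 and 76.4% and 68.4% in G2. In the SOX sum, which was 1226 and 1196 per kilobase in G0 and 2588 and 2813 in G2, Sox9 made up 82.7% and 84.6% in G0 and 49.4% and 46.4% in G2. Sox21 supplied most of the remainder in G2, at 41.8% and 44.7%, and Sox17 7.83% and 8.57%.

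**Figure D2:**
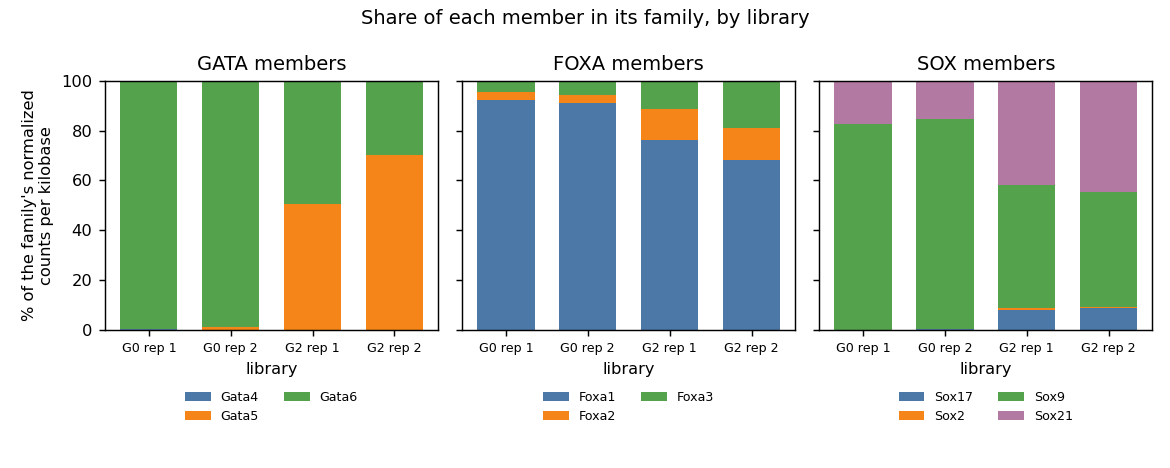
Stacked bars give the share of each member in each of the 4 libraries (x axis), for the GATA, FOXA and SOX members. The y axis is % of the normalized counts per kilobase summed over the members of that family, without its other genes. Gata5 makes up at most 1.14% of the summed level of the GATA members in G0 and at least 50.6% in G2. Foxa1 remains the main FOXA gene, and Sox21 takes a share close to that of Sox9 in G2.

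The other genes of these families, which the choice of members left out, were tested in the fit across all genes. That fit called 5.93% of all genes higher and 4.56% lower. Of 7 other GATA factors and cofactors tested, 2 rose and 0 fell (median log2 difference 0.49, against 0.01 over all genes tested). Gata2, a factor of blood and endothelial cells, stood at 0 and 1.02 normalized counts in G0 and at 315.7 and 232.6 in G2. The ratio of its means was 539.8, with a counting interval of 97.9 to 21674 from a single count in G0 (adjusted p = 0.000475, limma). It was 269.9 without G0 replicate 1 and at least 93.1 without G0 replicate 2. Gata3, a factor of T cells and of several epithelia, rose 3.32-fold, from 12.8 and 21.3 to 59.5 and 53.8 (adjusted p = 0.0407), a call lost in 3 other settings (0.0501 to 0.0703). Gata1 had a count of 0 in every library.

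Of 20 other forkhead factors, 1 rose and 0 fell (background 5.93% higher and 4.56% lower), with a median of 0.07. The gene that rose was Foxn1, the forkhead factor of thymic epithelium and hair follicle keratinocytes, from 23.6 and 30.5 normalized counts to 2553 and 1009.7, a ratio of 65.9 (adjusted p = 0.000525, limma) and of 37.4 without G2 replicate 1. The proliferation factor Foxm1 stood at 2969 and 2689.8 in G0 and at 2235 and 1800.5 in G2 (adjusted p = 0.0914). Of 9 other SOX factors, 1 rose and 1 fell (median -0.01). Sox12 fell 3.61-fold, from 671.6 and 756.8 to 253.1 and 142.7 (adjusted p = 0.00847). Sox4, a factor of progenitor cells, rose 1.62-fold (adjusted p = 0.04997), and its adjusted p lay between 0.052 and 0.182 in 6 of the other settings tried.

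**Figure D3:**
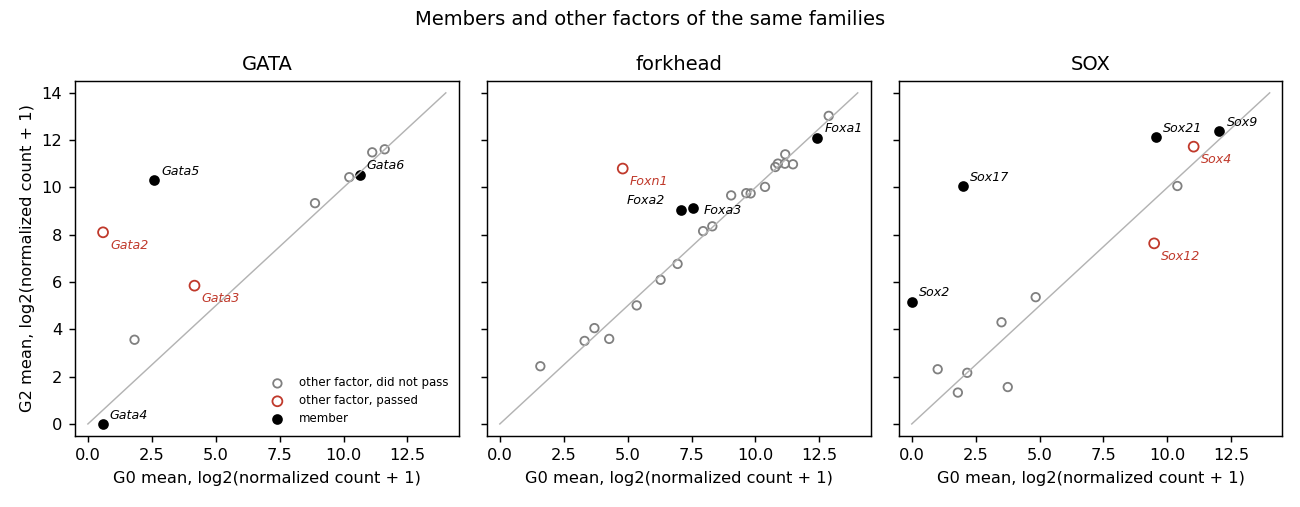
Mean over 2 G2 libraries (y axis) against mean over 2 G0 libraries (x axis), both as log2(normalized count + 1), for the members (filled) and the other tested factors of the GATA, forkhead and SOX families (open; red where the limma test was passed). The grey line marks equal levels. Most open points lie near the line, and Gata2 and Foxn1 lie far above it.

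Genes that act with these factors in early endoderm were low. The 12 genes of gastrulation and definitive endoderm with a row summed to between 80.2 and 163.5 normalized counts in a library. Of 6 tested, 0 passed the limma test and 1 had an unadjusted p under 0.05, with a median of -0.21. Eomes, which acts before Sox17 in the embryo, stood at 20.6 and 30.5 normalized counts in G0 and at 6.05 and 10.8 in G2 (adjusted p = 0.105). Hhex, a foregut endoderm factor, stood at 35.3 and 64 in G0 and at 122.0 and 36.2 in G2, where the groups overlapped and the log2 difference of 0.48 became -0.39 without G2 replicate 1. T (brachyury), Fgf8 and Trh had a count of 0 in every library. Among 8 visceral endoderm and yolk sac genes, another tissue that expresses Sox17 and the GATA factors, 0 rose and 1 fell, Rhox5, from 9.82 and 18.3 to 1.01 and 0.977 (adjusted p = 0.0333; 0.0521 on the deposited values as they stand). Ttr, a marker of that tissue, had a count of 0 in every library.

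Of 11 regulators of liver, pancreas and lung endoderm, 6 rose and 0 fell (54.5% higher, against 5.93% of all genes), with a median of 0.62. Without the intensity trend 3 were higher. Since this list was chosen with earlier results of these data known, nothing is read from its share. Prox1, a factor of liver and pancreas progenitors, rose 7.63-fold, from 135.5 and 102.6 normalized counts to 889.5 and 927.6 (adjusted p = 0.000508, limma). Isl1, a factor of pancreatic endocrine cells, stood at 1.96 and 0 in G0 and at 329.8 and 250.2 in G2 (adjusted p = 0.000793), 295.3 times as much in the mean (counting interval 79.9 to 2398). It was at least 95.2 without G0 replicate 1 and 147.7 without G0 replicate 2. Mnx1, needed for the dorsal pancreas, rose 9.79-fold from 3.93 and 4.06 to 32.3 and 45.9, and Cebpa, a liver factor, rose 2.07-fold. Tbx3, chosen after its values were seen, rose 6.79-fold, or 13.5-fold without G0 replicate 2.

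Genes of the stomach lining did not move one way. Of 11 tested, 2 rose and 2 fell (background 5.93% higher and 4.56% lower), with a median of 1.29. Aqp5, a water channel found in gastric glands, fell 121.6-fold, from 867.0 and 1303 normalized counts to 8.07 and 9.77, and Cym, which encodes chymosin, fell 23.4-fold, from 121.8 and 65 to 5.04 and 2.93 (adjusted p = 0.000165 and 0.00387, limma). The gland mucin Muc6 was at 0 in both G0 lines and at 12.1 and 5.86 in G2, a rise of at least 3-fold (adjusted p = 0.0354) and at least 1.96-fold without G2 replicate 1. Vsig1, an adhesion protein of gastric epithelium, rose 3.59-fold, or 2.27-fold without G2 replicate 2 (adjusted p = 0.0492; 0.0545 to 0.169 in 5 other settings). Tff2, Gkn2, Anxa10 and Lipf, which are abundant in stomach, had a count of 0 in every library.

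Most tested genes of the stratified epithelium of the esophagus and forestomach rose. Of 12 tested, 8 rose and 1 fell (66.7% higher, against 5.93% of all genes), with a median of 2.34. The list was chosen with earlier results of these data known, so nothing is read from this share. Without the intensity trend 4 were higher and 0 lower, with Krt6a, Ly6d, Krt13, Lor and Krt4 no longer called (adjusted p = 0.0596 to 0.125). The basal keratin Krt15 rose from 14.7 and 21.3 normalized counts to 3222 and 1126, a ratio of 120.6, or 62.5 without G2 replicate 1 (adjusted p = 0.000517, limma). Krt14, another keratin of basal cells, rose 3.06-fold, and Krt6a rose 2.97-fold. Dsg3, a desmosome cadherin, rose 9.21-fold from 12.8 and 11.2 to 116.0 and 104.6. The other 5, chosen after their values were seen, were Krt17, Ly6d, Krt13, Lor and Krt4. Among those that did not pass, also chosen after their values were seen, were Krt5 and Trp63. Krt5 stood at 4.91 and 5.08 normalized counts in G0 and at 9.08 and 0.977 in G2 (adjusted p = 0.785, limma). Trp63 was at 0 in both G0 lines and at 12.1 and 0 in G2 (adjusted p = 0.386).

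Krt13, a keratin of the esophageal upper layers, rose 17.6-fold, from 205.2 and 309.8 to 7043 and 2034, and the ratio was 7.9 without G2 replicate 1 and 27.4 without G2 replicate 2. Lor, which encodes a cornified envelope protein, rose 53.6-fold, or 13.9-fold and 93.4-fold without the same libraries. Krt17 rose 30.1-fold with a counting interval of 10 to 148.9, or 46.2-fold without G0 replicate 2, and Ly6d rose 7.27-fold. Krt4, the usual partner of Krt13, went the other way: it fell 5.73-fold, from 24042 and 33254 normalized counts to 7674 and 2332 (adjusted p = 0.018), and fell 12.3-fold without G2 replicate 1 and 3.73-fold without G2 replicate 2.

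Of 13 colon and intestinal identity factors, 3 rose and 4 fell (background 5.93% higher and 4.56% lower), with a median of -0.13. Without the intensity trend 0 were higher and 1, Cdx2, was lower. Cdx2 fell 12.2-fold, from 2395 and 3199 normalized counts in G0 to 270.3 and 186.7 in G2 (log2 difference -3.62, SE 0.23, adjusted p = 0.00043, limma). Isx, an intestine-specific homeobox gene, fell 13-fold, from 7138 and 8306 to 904.6 and 281.5, and by 27.4-fold without G2 replicate 1 or 8.54-fold without G2 replicate 2. The epithelial factors Klf5 and Ehf rose 2.06-fold and 1.86-fold. Without the trend the adjusted p of Isx, Klf5 and Ehf was 0.0633, 0.061 and 0.0939. Klf4 and Hnf4g fell 1.63-fold and 3.26-fold. Both were chosen after their values were seen, and Klf4 lost the call in 2 other settings (adjusted p = 0.0549 and 0.145) and Hnf4g in 6 (0.0503 to 0.0997). Hnf4a stood at 1291 and 1647 in G0 and at 1300.0 and 466.2 in G2, where the groups overlapped (adjusted p = 0.228).

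Genes of the small intestine, where GATA4 and GATA6 act, were read beside a background of 10.5% called. Of 10 genes of its proximal part, 0 rose and 1 fell (median 0.34), Ada, which encodes adenosine deaminase, from 308.3 and 388.0 to 149.3 and 126.1 normalized counts (adjusted p = 0.0135, limma; 0.06 without the intensity trend). Of 8 ileal genes, 1 rose and 1 fell (median -0.32). Bex1 fell 2.45-fold. Slc10a2, the ileal bile acid transporter, was low throughout, at 2.95 and 1.02 in G0 and at 31.3 and 11.7 in G2, 10.9 times as much in the mean (counting interval 3.88 to 41) (adjusted p = 0.046; 0.0513 to 0.106 in 6 other settings). Leaving out G0 replicate 1 gave a ratio of 21.2, and leaving out G2 replicate 1 gave 5.92.

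Of 7 tested genes of the secretory lineages that depend on FOXA1 and FOXA2, 2 rose and 1 fell, with a median of -0.30. The background was 5.93% higher and 4.56% lower. One that rose was Isl1, which is also on the list of pancreas regulators. The other was Clca1, a goblet cell protein, from 1.96 and 1.02 normalized counts to 67.6 and 26.4, 31.5 times as much in the mean (counting interval 10.3 to 153.8), or 17.7 times without G2 replicate 1 (adjusted p = 0.00911, limma). Fcgbp, another goblet cell protein, fell 2.79-fold, from 95.2 and 137.1 to 38.3 and 45 (adjusted p = 0.0338; 0.0614 and 0.0718 in 2 other settings). The mucin gene Muc2 was low and did not pass, at 9.82 and 18.3 in G0 and at 3.03 and 1.95 in G2 (adjusted p = 0.0748, limma). Gcg, Chgb, Neurod1 and Insl5, genes of enteroendocrine cells, had a count of 0 in every library. Of 13 crypt base and Paneth genes linked to Sox9, 0 passed the limma test in either direction and 3 had an unadjusted p under 0.05 (median 0.41). Cd44, a surface receptor of crypt cells, had the smallest p, at 10129 and 7645 in G0 and 17266 and 12791 in G2 (adjusted p = 0.0681).

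**Figure D4:**
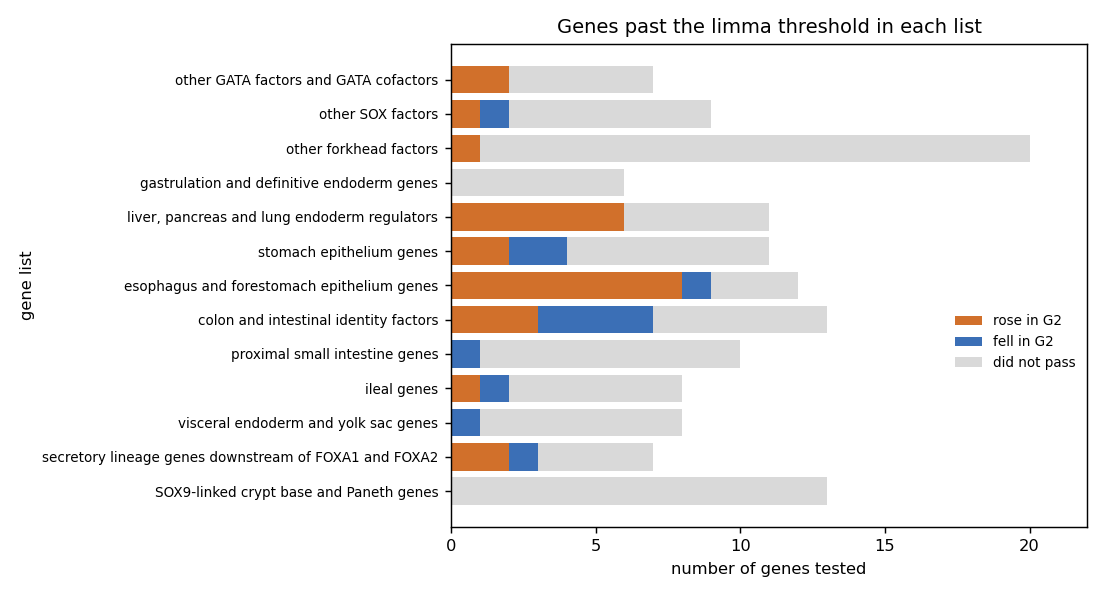
Number of tested genes (x axis) in each of the 13 gene lists (y axis) that rose in G2, fell in G2 or did not pass the limma test. The esophagus and forestomach list has 8 genes that rose and the liver, pancreas and lung list has 6, while the gastrulation list and the crypt base list have 0 in either direction.

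Some members are also made by cells other than epithelium, and markers of these were read in the same libraries. The labelled epithelium was present: the 10 epithelial markers summed to between 120328 and 163907 normalized counts in a library, Cdh1 rose 1.8-fold and Epcam stood at 5995 and 6994 in G0 and 6844 and 8669 in G2. Of these 10 markers, 2 rose and 2 fell, and 0 passed in either direction without the intensity trend (adjusted p = 0.0616 to 0.148 for these 4). The 2 that fell, Vil1 and Cdh17, are genes of the intestinal brush border and lateral membrane, and fell 4.42-fold and 5.26-fold (adjusted p = 0.0103 and 0.00417, limma), with Vil1 down 7.06-fold without G2 replicate 1. Car1, a colonic carbonic anhydrase, rose 31.2-fold, a ratio of 59.1 without G0 replicate 2, 7.01 without G2 replicate 1 and 55.5 without G2 replicate 2, and lost the call in 2 other settings (adjusted p = 0.0623 and 0.148).

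Endothelial cells express Sox17 and Gata2. The 9 endothelial markers with a row summed to 37.3 and 45.7 normalized counts in G0 and to 70.6 and 76.2 in G2, where Sox17 alone stood at 967.1 and 1150.5. Of 6 tested, 1 rose, the receptor gene Tek, from 2.95 and 4.06 to 47.4 and 45 (adjusted p = 0.00587, limma), and 0 fell. Tie1 stood at 15.7 and 11.2 in G0 and at 3.03 and 0.977 in G2, and Eng at 13.7 and 14.2 against 4.03 and 2.93 (adjusted p = 0.0628 and 0.0839), and 1 of the 6 was called lower with a pseudocount of 5 and without the intensity trend. Erg had a count of 0 in every library. Mesenchymal cells can express GATA factors. The 11 fibroblast and smooth muscle markers summed to 16.7 and 17.3 in G0 and to 203.7 and 465.3 in G2, and in G2 this was mostly Acta2, which rose from 7.86 and 4.06 to 184.6 and 434.0. The ratio for Acta2 was 51.9, or 31 without G2 replicate 2, and Col3a1 went from 0 to 7.06 and 6.84 (adjusted p = 0.00172 and 0.0404). Dcn, Pdgfra and Foxf1 had a count of 0 in every library.

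Neural and glial cells express Sox2. The 9 neural and glial markers summed to 1135 and 1353 normalized counts in G0 and 1531 and 1667 in G2, mostly the receptor gene Erbb3, which epithelium also makes. Of these, 0 of 5 tested passed the limma test and 1 had an unadjusted p under 0.05, and Gfap, a glial marker, had a count of 0 in every library. The immune markers with a row summed to 1143 and 2126 in G0 and 1183 and 1928 in G2, nearly all of it Cd68 (1129 and 2109.8, then 1151 and 1892), a lysosomal protein gene that cells other than macrophages also express. Ptprc, which all white blood cells carry, was at 0 in every library. Of 5 immune markers tested, 1 rose and 0 fell (background 5.93% higher and 4.56% lower), and 2 had an unadjusted p under 0.05. These were Csf1r, which passed, and Laptm5, which was higher in G2 and did not pass. Coro1a was lower in G2 and did not pass. Csf1r, a macrophage receptor gene, went from 0 in both G0 lines to 16.1 and 4.89, at least 3.51-fold higher (adjusted p = 0.0431; 0.0603 to 0.0715 in 3 other settings), or at least 1.63-fold without G2 replicate 1 and 5.38-fold without G2 replicate 2. The part of other cell types in the levels of the members was not tested.

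The members lie on 8 chromosomes, counting once the pairs that share one (Gata5 and Foxa2 on chromosome 2, Gata4 and Sox21 on chromosome 14). The median log2 difference over the tested genes of a member's chromosome lay between -0.05 (chromosome 12, Foxa1) and 0.10 (chromosomes 3 and 18). Reaching into the 1000 kb on either side of a member were 136 other tested genes, of which 5 rose and 2 fell (5.15%, against 10.5% of all genes). Around Gata5 0 of 29 passed the limma test and 8 had an unadjusted p under 0.05; its flanking genes Rbbp8nl and Slco4a1 stood at 374.5 ± 46.4 and 378.5 ± 0.609 normalized counts in G0, against 502.3 ± 44.1 and 278.8 ± 76.4 in G2 (each SD over 2 lines; adjusted p = 0.184 and 0.241). Of the genes around Foxa2 0 of 5 passed (0 at an unadjusted p under 0.05), and of those around Sox2 0 of 4 (1).

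Next to Sox17 the nearest tested gene on the side of higher coordinates, Mrpl15, stood at 1149 ± 76.3 in G0, against 870.4 ± 62.9 in G2 (each SD over 2 lines; adjusted p = 0.129, limma). On the other side Xkr4, 818980 bases away, rose from 33.4 and 16.3 normalized counts to 196.7 and 144.7, a ratio of 6.88, or 10.5 without G0 replicate 1 (adjusted p = 0.00823). Abcc4, a membrane transporter gene 245662 bases from Sox21, rose 2.03-fold, from 3389.5 and 2639 to 5708 and 6528 (adjusted p = 0.0115). Sox17, Gata5, Gata6, Sox2 and Sox21 each overlap a long non-coding transcript in the GENCODE annotation (Gm37587, Gata5os, 1010001N08Rik, Sox2ot and Gm4675). These were not analysed here, and since the strand setting of the counting is not given in the sources used here, their reads cannot be told apart from those of the members.

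**Figure D5:**
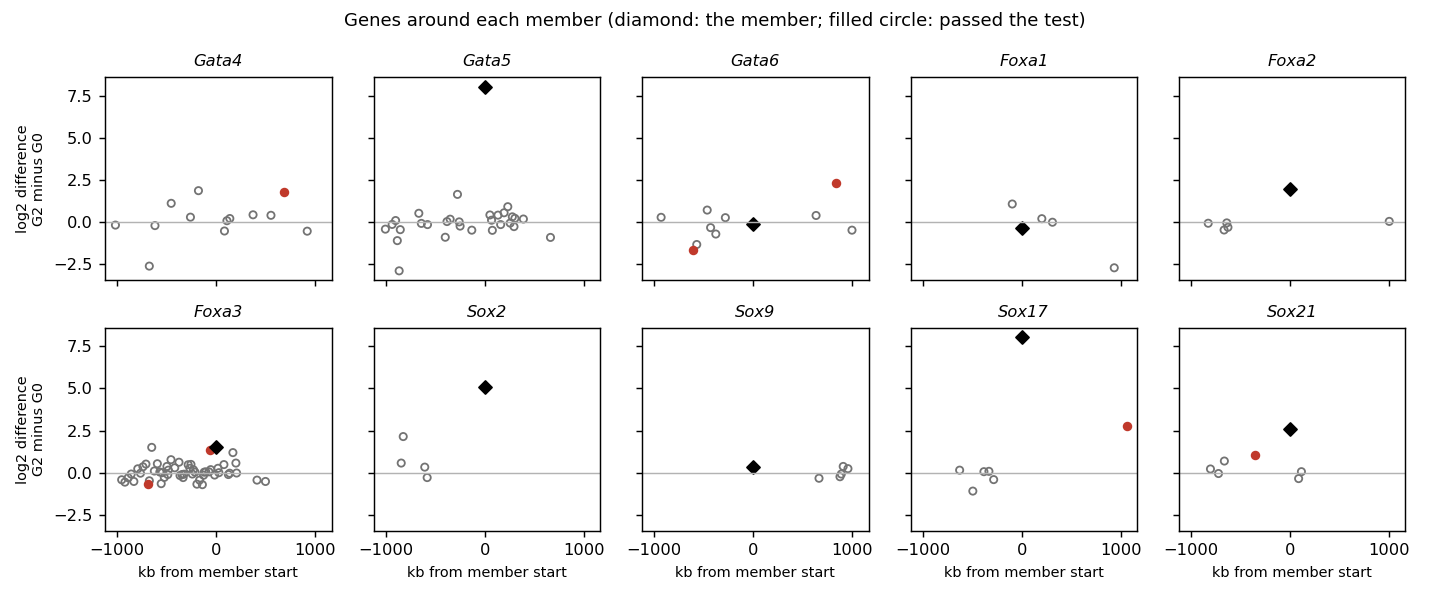
Log2 difference, G2 minus G0 (y axis), of the tested genes that reach within 1000 kb of each member, by distance in kb from the member's start in its direction of transcription (x axis, to the gene's centre). Diamonds are the members, filled circles genes that passed the limma test and open circles genes that did not. Gata5, Foxa2 and Sox2 stand above neighbours of which 0 passed.

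The genes whose profile over the 4 libraries was most like each member were taken by the Euclidean distance between log2(normalized count + 1) values centred on each gene's mean. These are descriptions over 4 libraries, with no test of likeness. For Sox17 the nearest was Smoc1, a matricellular protein gene, at 0 in both G0 lines and at 199.7 and 265.9 normalized counts in G2 (distance 0.22), followed by the Y-linked Ddx3y and Uty (0.39 and 0.58). For Gata5 the nearest were Thbs2, a secreted matrix protein gene that went from 14.7 and 74.2 to 4217 and 5669 (distance 1.02), and the gasdermin gene Gsdmc2 (1.37), which has near-identical neighbours that can share its reads. The ratio for Thbs2 was 111.2, or 66.7 without G0 replicate 1 and 335.6 without G0 replicate 2, and that for Gsdmc2 was 326.9, or 217.3 without G2 replicate 2.

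Foxa2 was nearest to Il17re, an interleukin receptor gene that went from 154.2 and 193.0 normalized counts to 721.1 and 630.5 (distance 0.06), and to Ckap4 (0.14) after Rab7b (0.13). Sox21 was nearest to Pik3cg (0.07) and to Notum (0.08), whose product cleaves a lipid from Wnt proteins, at 174.8 and 164.6 in G0 and 945.0 and 1097 in G2. Gata6, Foxa1 and Sox9 had neighbours at distances of 0.02 to 0.05. Foxa3 was nearest to Sycn and Rtp4 (0.08 each) and Itpr2 (0.10), and Sox2 had no neighbour closer than Apobec2 (0.43).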

How the data were processed

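The authors deposited 1 table of 16857 genes by 4 libraries on a log2 scale, with the same lowest value, 6.508, in every library. Tools listed by the submitters' processing notes, without their order or role, are HISAT2 2.1.0, StringTie 2.1.1, DESeq2 1.32.0, R 3.5.2 and bcl2fastq 2.20.0, with build mm10. Annotation, strand setting and read filters: not given in the sources. The table has the form of a variance-stabilizing transformation. It was inverted with its lowest value as the constant, and one size factor per library (0.9844 to 1.0231) made 100% of the values whole, to within 0.001. These are called counts, but StringTie estimates coverage, so they can be rounded estimates.

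The test was limma 3.58.1 in R 4.3.3, two-sided, with an intensity trend, on log2(normalized count + 1), group as the only term, with Benjamini-Hochberg adjustment over 13981 genes with a mean of at least 1. The planned design had named counts or normalized values; a log2 table takes limma. Log2 differences understate the change of low genes. Ratios are of mean normalized counts; a group at 0 was set to 3 counts per library. The fit was tested on simulated data. Every adjusted p is from this fit, except where the text gives it for another setting, such as without the intensity trend. Positions are from RefSeq GRCm38.p6 (13668 of 13981 tested genes matched by symbol) and exon lengths from GENCODE M21 (16492 of 16857 genes).

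The members and lists were chosen with earlier results of these data known. Named were all members, Tert, up to 4 genes with the smallest p of each list, the tested gene on each side of a member, and the 3 closest profiles of each member; in the text a part of the last groups is given. Genes outside this rule are said to be chosen after their values were seen, and the genes listed at 0, Y-linked and marker genes were too. A comparison of protein sequences was planned and was not analysed here. Alternatives covered the pseudocount, the filter, the scaling, the trend, the replicate block and leaving out each library. Some genes of the lists are not reported here by name; they stay in the counts.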

Additional observations from a re-analysis of the deposited data

How the results depend on the processing

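The number of genes past the threshold was 1467 and stayed within 1.5 times of that, from 1065 to 1614, with pseudocounts of 0.5 and 5, no filter, a minimum mean of 5, scaling by total counts or the upper quartile, and the deposited values as they stand. It was 623 without the intensity trend and 3503 with a replicate block; the cause was not tested. Of the genes in the fixed lists other than markers, 37 of 130 passed, 16 without the trend and 59 with a replicate block. The replicate numbers mark different lines and the groups share only a number: deviations of same-numbered libraries had a correlation of 0.174 over 12080 genes. Leaving out 1 library at a time gave 0 to 2 genes past the threshold over all genes and 0 to 0 in the lists, since 1 group then has a single library whose spread is taken from the other group. The ratio of G2 to G0 means without 1 library at a time lay between 322.8 and 383.9 for Sox17, 138.4 and 1289 for Gata5, 0.93 and 0.952 for Gata6, 0.713 and 0.886 for Foxa1, 3.53 and 4.43 for Foxa2, 2.37 and 3.56 for Foxa3, 7.18 and 16.2 for the lower bound of Sox2, 1.26 and 1.29 for Sox9, and 5.49 and 6.38 for Sox21. With scaling by total counts the ratio was 0.983 for Gata6 and 1.33 for Sox9, more than the spread between lines away from the values given. Of 62 genes named with values that are not members, with Krt5, Trp63 and Muc2 not among them, 53 passed. All 53 lost the call whichever library was left out, and 26 without the trend, 8 did without the filter, and 1 to 5 did in each of the other settings apart from the block, which lost 0 and gained 5. No called difference changed sign in any setting. Of the counted genes that did not pass, Hhex did, from a log2 difference of 0.48 to -0.39 without G2 replicate 1. At this depth a count of 0 allows 2.93 to 3.05 normalized counts in a library, so levels of Gata4, and of Sox2 in G0, below that could not be seen.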
